A study of Homo sapiens with 18 samples.

Results

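The comparison described here is tazemetostat against its solvent DMSO in G401 cells that still carry RB1, over every gene with a mean value of at least 10 in the 6 libraries concerned. By that rule 16077 of the 55765 gene symbols in the deposited table were included, and 6 of its 18 libraries. G401 is an established malignant rhabdoid tumour cell line. The RB1-intact cells, labelled WT, were isogenic controls made by CRISPR/Cas9 cutting at the AAVS1 safe harbour locus, and 3 biological replicates received 10 µM tazemetostat for 11 days while another 3 received the same volume of DMSO. The labels give neither whether the control line is 1 clone nor whether the replicates were separate cultures, so p-values measure only the spread between these libraries. The other 12 libraries are 2 RB1-deleted clones of the same line, E1 and F2, each a single clone with biallelic RB1 deletion, under the same 2 conditions with 3 libraries per group. They enter below only where the WT response is set beside theirs. Poly(A) RNA was sequenced with a stranded kit, and a value is a read count divided by the size factor of its library (normalized count).

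EZH2 is the catalytic subunit of Polycomb repressive complex PRC2, which methylates lysine 27 of histone H3 at promoters of developmental genes and holds them silent. Rhabdoid tumours lack SMARCB1, a subunit of the SWI/SNF chromatin remodelling complex that counteracts Polycomb, and tazemetostat is a small molecule that blocks the methyltransferase activity of EZH2 without removing the protein. RB1 binds E2F transcription factors and represses the genes of DNA replication, while the related DREAM complex represses mitotic genes through a promoter element called CHR.

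No library of the 18 had a read of SMARCB1, whose loss defines the rhabdoid tumour; up to 3 reads per library were taken as the floor of detection. RB1 transcript was 2694 ± 132 to 2474 ± 157 normalized counts (DMSO to tazemetostat, mean ± SD, n = 3 per group as throughout), with overlapping libraries (limma adjusted p = 0.33). The 6 WT libraries held 28954561 to 39314860 reads. The first principal component of the tested genes carried 95.78% of their variance and separated the 2 treatments. The 13 transcripts encoded by the mitochondrial genome took 3.45% to 3.84% of reads with DMSO and 4.42% to 5.49% with tazemetostat, a shift that moved with treatment and whose part in the results was not tested.

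With tazemetostat, 2386 genes rose and 1049 fell, which is 14.8% and 6.52% of the 16077 tested (limma on log2(value + 1), with a Benjamini-Hochberg adjusted p under 0.05 and a log2 change no smaller than 1 in size). Of the calls, 69.5% were rises. When every library was scaled to the same total, 2075 genes rose and 1465 fell, so that 58.6% of calls were rises, because the normalized totals of the tazemetostat libraries were larger. That scaling moved the median log2 change of all tested genes from 0.03 to -0.12, a shift of -0.15, against which the list medians below should be read. The rises reached far larger sizes than the falls. In 749 of the risen genes no DMSO library had more than 3 reads, whereas 4 fallen genes were at that floor in every tazemetostat library. The filter shapes this asymmetry at low levels, since a gene near 0 in DMSO entered the test only if it was high with tazemetostat. Among the 6132 genes with 1000 to 10000 normalized counts in DMSO, where the filter plays no part, 274 (4.47%) rose and 302 (4.92%) fell. Just below the threshold of the filter lay GKN1, with a mean of 9.998, and just above it CTD-2236F14.1, with 10. Of the 14841 tested genes with a DMSO mean of at least 10, 8.43% rose and 7.07% fell, with a median log2 change of -0.02. List counts over members at that level are given below beside the full counts where many members were near 0 in DMSO, since the filter fixed the direction of the others.

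**Figure D1:**
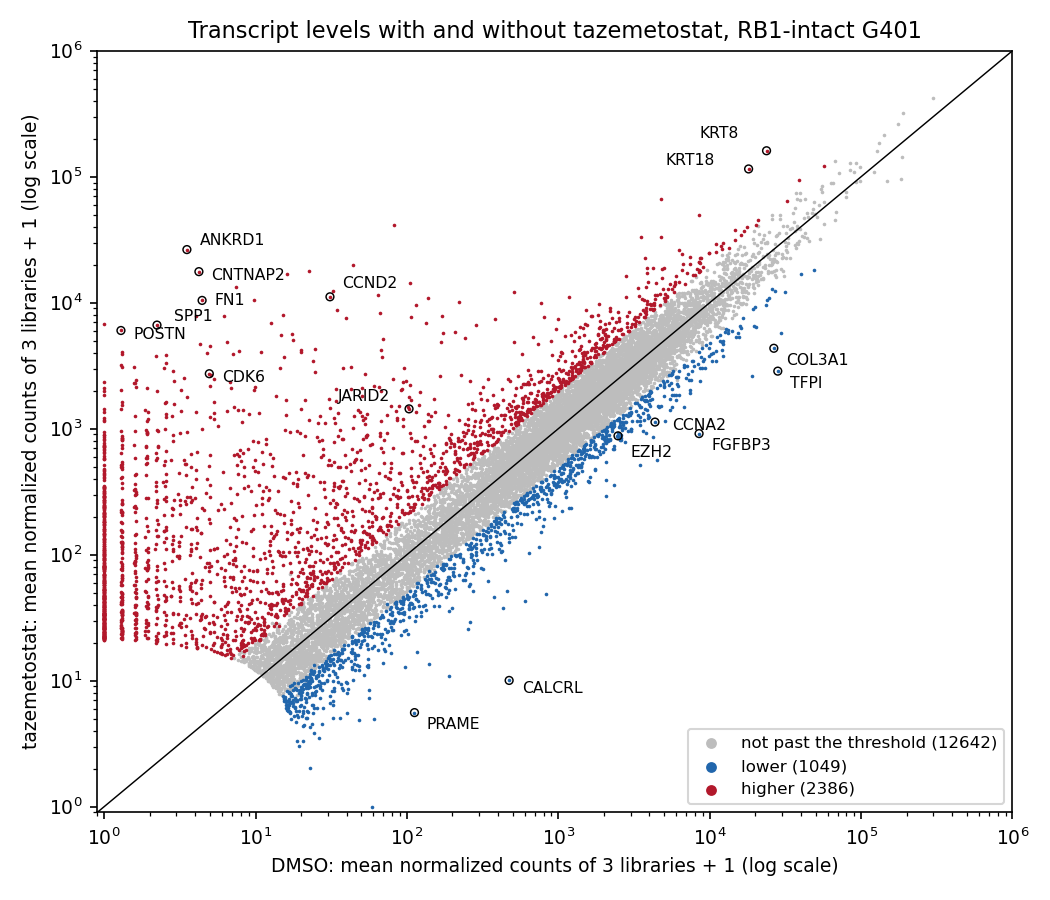
Mean normalized counts + 1 of the 3 tazemetostat libraries (vertical, log scale) against those of the 3 DMSO libraries (horizontal, log scale) for 16077 tested genes, coloured by call, with some genes of the text circled. Risen genes fan out at the left edge, where DMSO libraries had few or no reads, while fallen genes stay closer to the diagonal. The empty lower left corner is the filter on a mean of 10.

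The largest rise was in ANKRD1, a cardiac ankyrin repeat protein and a classic target of the YAP and TEAD transcription factors. It had 0, 1.89 and 5.68 in the DMSO libraries and 27170, 28580 and 23460 in the tazemetostat libraries. The DMSO libraries were near 0 and the groups were far apart, with a log2 change of 13.26 ± 0.45 (± SE as throughout; adjusted p from limma 9.9e-15). TNFRSF19, a TNF receptor family member, had 0 in each DMSO library and 6977, 6832 and 6476 in the tazemetostat libraries, at least 2450-fold higher against a floor of 3 reads per library. CNTNAP2, a neuronal adhesion protein of the neurexin family, had 8.73, 0 and 0.946 in the DMSO libraries and 18740, 17250 and 16960 in the tazemetostat libraries. One DMSO library held most of the few reads of this gene, and the 3 treated libraries were alike. Of the tested genes 39.8% had all 3 tazemetostat libraries above all 3 DMSO libraries, so the absence of overlap alone singles out no gene.

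Of the other 7 of the 10 largest rises, 3 encode secreted or matrix proteins. POSTN (periostin) had 0.874, 0 and 0 in the DMSO libraries and 5725, 6685 and 5644 in the tazemetostat libraries. SPP1 (osteopontin) had 0.874, 2.83 and 0 in the DMSO libraries and 6344, 7917 and 5676 in the tazemetostat libraries. FN1 (fibronectin) had 0.874, 6.6 and 2.84 in the DMSO libraries and 10530, 10980 and 9769 in the tazemetostat libraries. In all 3 genes no DMSO library exceeded 6.60 normalized counts, and no treated library was under 5644. The others were PDLIM1, a LIM-domain protein of actin stress fibres (log2 change 11.68 ± 0.29), CDC42EP3, an effector of the small GTPase CDC42 (11.61 ± 0.26), the transcription factor ETS1 (11.34 ± 0.21) and the ubiquitin ligase MARCH4 (11.26 ± 0.31).

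By change in normalized counts, which also depends on transcript length, the keratin pair of simple epithelia led. KRT8 had 24750, 24120 and 22360 in the DMSO libraries and 158400, 158300 and 165800 in the tazemetostat libraries, a log2 change of 2.76 ± 0.13. KRT18, its partner in the filament, had 18870, 18650 and 16680 in the DMSO libraries and 116800, 112100 and 117000 in the tazemetostat libraries, a log2 change of 2.68 ± 0.09. Both were already abundant in DMSO and both rose in every treated library, though processed pseudogenes of the 2 keratins may share their reads. PSAP, the precursor of the lysosomal saposins, rose from 38680 ± 2285 to 94970 ± 4886. AHNAK, a very large scaffold protein, rose by 1.08 ± 0.17, and its call was lost with equal totals (0.93) and without DMSO replicate 1 (0.96).

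Falls were smaller in fold. The filter on a mean of at least 10 admitted no fallen gene with a DMSO mean under 10. CALCRL, the receptor for calcitonin gene-related peptide and adrenomedullin, had 472, 431 and 515 in the DMSO libraries and 3.94, 8.42 and 14.8 in the tazemetostat libraries. Every treated library was far below every DMSO library, an order found in 32.7% of all tested genes, with the treated mean at 1.91% of the DMSO mean (log2 change -5.71 ± 0.32, limma adjusted p = 1.1e-11). PRAME, a cancer-testis antigen, fell from 111 ± 9.23 to 4.58 ± 2.97. ADCYAP1, which encodes the neuropeptide PACAP, had 406, 103 and 58.7 in the DMSO libraries and 18.7, 0.935 and 9.85 in the tazemetostat libraries. Its DMSO libraries differed among themselves so widely that the SD equalled the mean, 189, and its SE of 0.88 was the largest among the falls named here.

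TFPI, the inhibitor of the tissue factor pathway of coagulation, combined a large fold with a high level. It had 28960, 27880 and 27660 in the DMSO libraries and 3057, 2900 and 2632 in the tazemetostat libraries, so that 10.2% of the DMSO level was left. FGFBP3, a secreted binding protein of fibroblast growth factors, kept 10.7%, and the potassium channel gene KCNT2 8.43%. The other falls of the top 10 were in CCDC160 (log2 change -3.82 ± 0.17), the transcription factor ST18 (-3.35 ± 0.30), the transporter ABCC2 (-3.24 ± 0.25) and the peroxisomal oxidase ACOX2 (-3.16 ± 0.15). In counts the largest falls were in HNRNPA1, an RNA-binding splicing regulator (48980 ± 836 to 18350 ± 1084), which has many processed pseudogenes, in TFPI, in the platelet and endothelial protein MMRN1 (29560 ± 1054 to 5773 ± 654), in SAT1, which acetylates polyamines (40340 ± 721 to 17020 ± 325), and in the fibrillar collagen COL3A1 (26520 ± 1684 to 4349 ± 55.8).

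**Figure D2:**
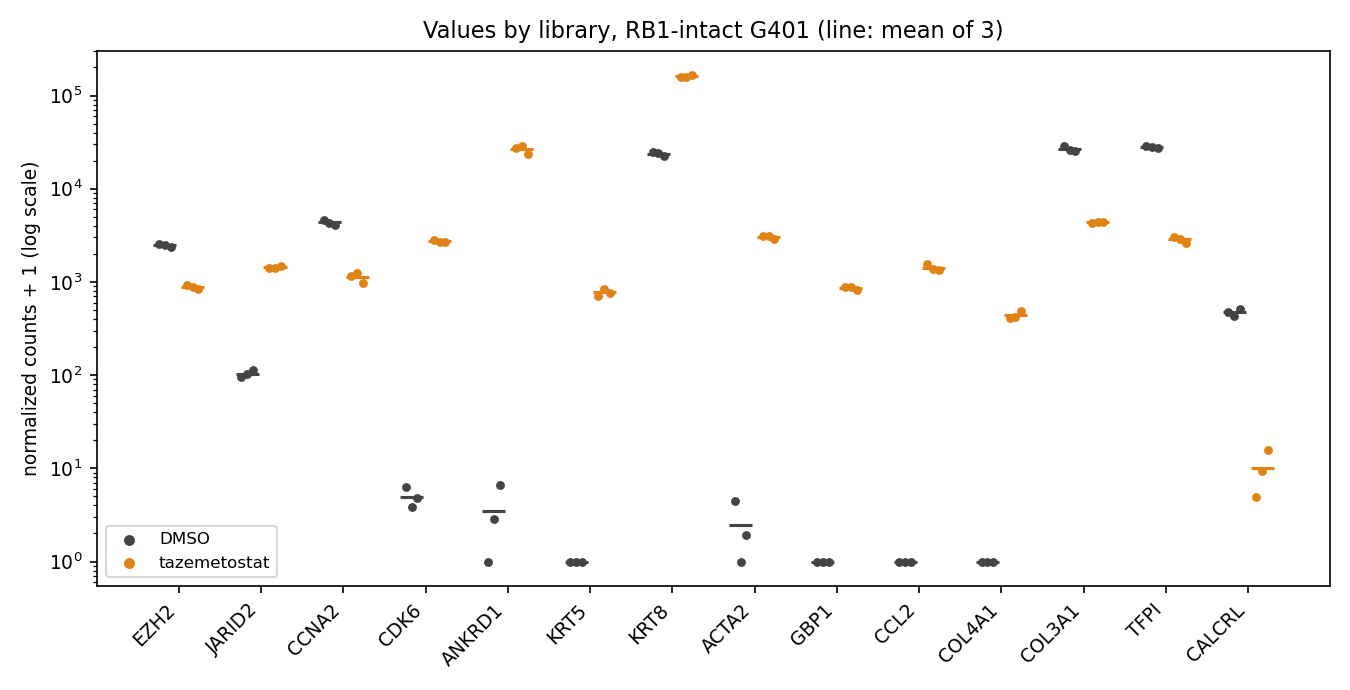
Normalized counts + 1 (log scale) of 14 genes of the text in each WT library, with DMSO in grey and tazemetostat in orange and a line at the mean of 3. In none of these genes do the groups overlap. KRT5, GBP1, CCL2 and COL4A1 are at 0 in each DMSO library.

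The drug's target was itself lower. EZH2 had 2560, 2492 and 2383 in the DMSO libraries and 917, 880.1 and 833 in the tazemetostat libraries, a log2 change of -1.5 ± 0.07 (limma adjusted p = 6.5e-13), and the groups did not overlap. Of 14 tested PRC2 genes 2 rose and 2 fell, 14.3% each, against 14.8% and 6.52% of all tested genes. All 14 had a DMSO mean of at least 10, where 8.43% of tested genes rose and 7.07% fell. JARID2, an accessory subunit that recruits the complex to chromatin, had 94.3, 101 and 112 in the DMSO libraries and 1398, 1415 and 1495 in the tazemetostat libraries, which is 14-fold higher on the means. C17orf96, the elongin-associated PRC2 partner also called EPOP, rose by 1.24 ± 0.07. PHF19, a Polycomb-like subunit that binds methylated lysine 36, fell by 1.14. EZH1, the paralogue of EZH2, went from 1140 ± 54.6 to 1384 ± 15.1 and did not pass the threshold, nor did KDM6B, which demethylates lysine 27 (1101 ± 130.3 to 1577 ± 153).

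Among 20 tested subunits of PRC1, the complex that binds the mark of PRC2, PCGF5 stood out. It had 30.6, 44.3 and 35 in the DMSO libraries and 3196, 3069 and 2823 in the tazemetostat libraries, a log2 change of 6.35 ± 0.13. BMI1 (PCGF4), a RING-finger subunit of canonical PRC1, fell from 12680 ± 536 to 5882 ± 358, and SCMH1 from 1633 ± 92.7 to 777 ± 6.62. The remaining 17 did not pass, and the list median was 0.03, or -0.12 with equal totals. All 8 tested genes of DNA methylation had lower means with tazemetostat. TET1, which oxidizes methylcytosine, fell from 636 ± 81.9 to 102 ± 31, UHRF1, the maintenance cofactor, from 1897 ± 162 to 629 ± 49, and the de novo enzyme DNMT3B from 1056 ± 51.6 to 374 ± 16.2. The lysine 36 methyltransferase WHSC1 (NSD2) fell by 1.17.

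Genes of the cell cycle fell together. Of 48 DNA replication genes, 35 fell and 0 rose, and all 48 had log2 changes below 0, with a median of -1.25. Of 41 mitotic genes, 31 fell and 0 rose, all 41 were below 0, and the median was -1.21. The background is 6.52% of tested genes falling and a median of 0.03. With equal totals 40 and 36 fell. In bulk RNA, fewer dividing cells and less of these transcripts per cell cannot be told apart.

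PRIM1, the catalytic subunit of primase, had 795, 808 and 764 in the DMSO libraries and 182, 175 and 149 in the tazemetostat libraries, which left 21.4% of the DMSO mean. GINS2, a subunit of the replicative helicase, had 1629, 1599 and 1520 in the DMSO libraries and 362, 439 and 320.2 in the tazemetostat libraries. ORC1, of the origin recognition complex, fell from 1567 ± 98.7 to 386 ± 36.5, the helicase subunit MCM6 from 7437 ± 499 to 2026 ± 141 and the sliding clamp PCNA from 6974 ± 712 to 2535 ± 338. At the other end RPA1, which coats single-stranded DNA, changed by -0.31 ± 0.07 and the polymerase subunit POLE by -0.98 ± 0.08, which did not pass at a log2 limit of 1, although POLE passed with equal totals (-1.13).

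Among mitotic genes the spindle protein ASPM fell from 7439 ± 153 to 1913 ± 74.8, the spindle motor KIF11 from 6292 ± 557 to 1834 ± 177 and topoisomerase TOP2A from 20220 ± 1131 to 6402 ± 577. MKI67, the Ki-67 antigen, had 13650, 16490 and 16220 in the DMSO libraries and 5768, 6023 and 5598 in the tazemetostat libraries. Each treated library was below each DMSO library, and 37.5% of the DMSO mean was left. The kinase PLK1 fell (-1.21 ± 0.08), as did FOXM1, the transcription factor of the mitotic programme (-1.46 ± 0.06). CDK1 changed by -0.85 ± 0.10, ANLN, of the cytokinetic ring, by -0.82 ± 0.08 and ECT2, which activates RhoA at division, by -0.75 ± 0.08, all short of the log2 limit. Genes of homologous recombination and the Fanconi pathway, many of them known E2F targets, were lower too, with 14 of 24 lower, 0 higher and a median of -1.12. The helicase BRIP1 fell from 1119 ± 45.5 to 284 ± 15.8, FANCD2 from 2572 ± 73.3 to 807 ± 19.8 and RAD51AP1 from 1347 ± 74.8 to 441 ± 71.8.

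Some promoters of replication and mitotic genes carried known cell cycle elements, and 3 that do are shown with 2 promoters of risen genes. They cover 250 bases before the RefSeq transcription start in GRCh38.p14, 5′ to 3′ on the gene's strand. Capitals mark matches on either strand to an E2F core (TTTCCCGC or TTTGGCGC) or the NF-Y box (CCAAT) in GINS2, to the CHR (TTTGAA) or the NF-Y box in KIF11 and MKI67, to a TEAD core (GGAATG) in ANKRD1 and to an interferon response element core (GAAA, any 2 bases, GAAA) in IFIT1. In MKI67 the second CHR and the second NF-Y box overlap by 1 base.
GINS2, chr16:85688955-85689204 (- strand): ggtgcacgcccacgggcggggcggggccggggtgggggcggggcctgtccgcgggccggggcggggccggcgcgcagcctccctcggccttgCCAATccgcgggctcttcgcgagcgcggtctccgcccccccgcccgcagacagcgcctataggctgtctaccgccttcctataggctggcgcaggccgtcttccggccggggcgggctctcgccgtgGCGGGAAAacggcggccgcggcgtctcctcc
KIF11, chr10:92592880-92593129 (+ strand): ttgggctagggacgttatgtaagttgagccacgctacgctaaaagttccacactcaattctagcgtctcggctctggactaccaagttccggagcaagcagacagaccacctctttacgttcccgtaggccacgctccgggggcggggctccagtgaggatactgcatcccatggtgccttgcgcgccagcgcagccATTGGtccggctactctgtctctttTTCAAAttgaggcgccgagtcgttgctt
MKI67, chr10:128126424-128126673 (- strand): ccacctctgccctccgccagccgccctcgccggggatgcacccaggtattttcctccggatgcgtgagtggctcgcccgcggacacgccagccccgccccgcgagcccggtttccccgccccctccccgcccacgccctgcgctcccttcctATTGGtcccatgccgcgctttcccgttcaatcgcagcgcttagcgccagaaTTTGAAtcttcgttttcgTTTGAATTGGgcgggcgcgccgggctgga
ANKRD1, chr10:90921088-90921337 (- strand): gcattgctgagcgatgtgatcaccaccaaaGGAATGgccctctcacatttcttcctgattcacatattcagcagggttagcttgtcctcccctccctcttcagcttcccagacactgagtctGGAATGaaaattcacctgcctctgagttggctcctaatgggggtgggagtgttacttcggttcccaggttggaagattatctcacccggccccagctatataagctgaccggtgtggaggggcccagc
IFIT1, chr10:89392373-89392622 (+ strand): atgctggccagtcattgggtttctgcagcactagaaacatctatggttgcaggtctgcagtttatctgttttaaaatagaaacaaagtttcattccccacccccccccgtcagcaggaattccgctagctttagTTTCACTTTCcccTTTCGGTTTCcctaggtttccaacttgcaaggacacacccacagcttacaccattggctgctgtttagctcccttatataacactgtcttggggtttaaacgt

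An E2F core was found in 26.8% of the promoters of DNA replication genes (11 of 41 with an entry), against 3.11% of the 10602 promoters of tested protein-coding genes. A CHR was found in 58.3% of the promoters of mitotic genes (21 of 36), against 8.41%, and in 2.44% of those of DNA replication genes. The NF-Y box was in 72.2% of mitotic and 58.5% of replication promoters, against 35%. A TEAD core as in ANKRD1 occurred in 9.40% and an interferon element core as in IFIT1 in 2.28% of the tested protein-coding promoters. A match is a description of the sequence, not evidence of binding. A count was taken as void where under 80% of a set had a promoter in the table, and so no share is given for the interferon-stimulated list (76.5% with an entry), the YAP and TEAD list (77.3%), the risen protein-coding genes (76.1%) or the fallen ones (79.7%).

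Regulators of the G1 phase moved in both directions. Of 29 genes of the RB and E2F network 4 rose and 8 fell, 13.8% and 27.6% against 14.8% and 6.52% of all tested genes. Of the 28 with a DMSO mean of at least 10, 3 rose and 8 fell, 10.7% and 28.6% against 8.43% and 7.07%. CDK6, a G1 kinase that phosphorylates RB1, had 5.24, 2.83 and 3.79 in the DMSO libraries and 2847, 2660 and 2685 in the tazemetostat libraries. CCND2, the cyclin D2 that activates it, had 30.6, 30.2 and 29.3 in the DMSO libraries and 11550, 11100 and 10770 in the tazemetostat libraries. Both were nearly silent in DMSO and present in every treated library, at log2 changes of 9.14 ± 0.44 and 8.49 ± 0.24. CCND1 (cyclin D1) rose by 1.05 ± 0.06, a call lost with equal totals (0.90), and MYBL1 by 1.25 ± 0.09, while CDK4 went from 11350 ± 678 to 7065 ± 366 and did not pass.

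Downstream members fell. CCNA2, the S phase cyclin, had 4615, 4314 and 4117 in the DMSO libraries and 1169, 1244 and 972 in the tazemetostat libraries, a log2 change of -1.95 ± 0.09. The atypical repressor E2F8 fell from 1217 ± 50.9 to 233 ± 9.52 and the activator E2F2 from 1170 ± 74.6 to 232 ± 33.9, whereas E2F1 changed by -0.64 ± 0.07 and did not pass. Among 7 inhibitors of cyclin-dependent kinases, 3 rose and 1 fell (42.9% and 14.3%). All 7 had a DMSO mean of at least 10, where 8.43% of tested genes rose and 7.07% fell. CDKN2B (p15) had 870, 753 and 770.3 in the DMSO libraries and 7916, 7393 and 7599 in the tazemetostat libraries, a 9.57-fold rise, and CDKN2A (p16 and ARF) had 1155, 1221 and 1316 in the DMSO libraries and 4163, 4280 and 3858 in the tazemetostat libraries, a 3.33-fold rise. Transcripts overlap at this locus and the strand setting of the counting was not given. CDKN2D (p19) rose by 1.03 ± 0.12, a call lost with equal totals (0.88), and CDKN2C (p18) fell by 1.61. CDKN1A (p21) was 2429 ± 86.8 to 4285 ± 109, a log2 change of 0.82 ± 0.07 just short of the limit, and CDKN1C (p57) was 51.7 ± 12.2 to 52.2 ± 16.7 with overlapping libraries.

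Of 27 tested p53 target genes 6 rose and 0 fell, 22.2% against the 14.8% of all tested genes, with a median of 0.36. Of the 26 with a DMSO mean of at least 10, 5 rose (19.2%), against 8.43% of all tested genes at that level. The death receptor FAS had 0.874, 1.89 and 0 in the DMSO libraries and 612, 607 and 543 in the tazemetostat libraries, and the kinase PLK2 rose from 51.5 ± 9.09 to 2732 ± 181. The stress cytokine GDF15 rose from 1324 ± 67.7 to 3269 ± 124, while the p53 ubiquitin ligase MDM2 changed by 0.36 ± 0.06 and did not pass. Of 15 genes of the BCL2 family 2 rose and 1 fell, 13.3% and 6.67% against 14.8% and 6.52% of all tested genes. The survival factor BCL2L1 rose from 3725 ± 215 to 8374 ± 149 and the BH3-only protein BMF fell from 179 ± 3.45 to 53.2 ± 4.62. The other rise came from a DMSO mean under 10.

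Many genes of antigen presentation and interferon signalling rose. In the class I pathway, which displays peptides of the cell's own proteins, 11 of 17 tested genes rose and 0 fell, with a median of 1.17. HLA-B had 516, 497 and 515 in the DMSO libraries and 5008, 4930 and 4657 in the tazemetostat libraries, a log2 change of 3.25 ± 0.10. The transactivator NLRC5 rose from 144 ± 12.4 to 516 ± 59, HLA-C from 1830 ± 24.3 to 8053 ± 153, the light chain B2M by 1.28 ± 0.09 and the peptide transporter TAP1 by 1.73 ± 0.07. The endoplasmic reticulum chaperones CALR and CANX changed by 0.53 ± 0.08 and 0.4 ± 0.08 and did not pass. HLA genes are similar in sequence, so reads may be divided among them.

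In the class II pathway, normally restricted to antigen-presenting cells, 10 of 13 rose and 2 fell, and 8 of the 13 had a mean under 10 in DMSO. Of the other 5, 2 rose and 2 fell. HLA-DRA had 0, 0.943 and 0 in the DMSO libraries and 141, 118 and 108 in the tazemetostat libraries. HLA-DPB1 had 1.75, 1.89 and 2.84 in the DMSO libraries and 256, 279 and 271 in the tazemetostat libraries. CIITA, the master transactivator of class II genes, had 0 in each DMSO library and 45.3, 46.8 and 44.3 in the tazemetostat libraries. These 3 genes were almost absent in DMSO and modest in level with tazemetostat. HLA-DMA, part of the peptide exchange factor, went the other way, from 317 ± 10.2 to 145 ± 18.8, and its partner HLA-DMB was 108 ± 24 to 114 ± 6 with overlapping libraries.

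Of 34 tested interferon-stimulated genes 20 rose and 0 fell, with a median of 1.26, and 12 of them had a mean under 10 in DMSO. Of the other 22, 8 rose (36.4%), with a median of 0.94. GBP1, an interferon-induced guanylate-binding protein, had 0 in each DMSO library and 886, 875 and 817 in the tazemetostat libraries, at least 311-fold higher. IFIT2 had 0.874, 0 and 0 in the DMSO libraries and 540, 501 and 514 in the tazemetostat libraries and IFIT1, both sensors or effectors against viral RNA, had 63.8, 53.7 and 54.9 in the DMSO libraries and 292, 296 and 240.1 in the tazemetostat libraries. The response was uneven: MX1 and MX2, antiviral GTPases, had no reads in any of the 6 libraries, and IFI44L reached 4.93 normalized counts at most. BST2 and IFITM3, the most abundant members that did not pass, changed by 0.46 ± 0.09 and 0.94 ± 0.12.

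Of 18 tested cytokines and chemokines, 13 rose and 1 fell, with a median of 4.38. The filter fixed much of this, as 9 of the 18 had a mean under 10 in DMSO. Of the other 9, 4 rose and 1 fell, with a median of 0.93, and 16 listed genes were not tested. CCL2, which attracts monocytes, had 0 in each DMSO library and 1539, 1374 and 1357 in the tazemetostat libraries. CXCL6 had 0, 0.943 and 0 in the DMSO libraries and 1742, 1692 and 1468 in the tazemetostat libraries and CXCL5 had 0 in each DMSO library and 969.7, 978 and 723 in the tazemetostat libraries, both ligands of neutrophil chemokine receptors. All 3 were silent or nearly so in DMSO. LIF, already expressed, was 4981 ± 181 to 4593 ± 59.4 and did not pass. Of 20 hematopoietic marker genes 5 were tested and 1 rose, the platelet chemokine PPBP. Their summed value was 84.2 to 105.6 with DMSO and 188 to 261 with tazemetostat. The defining leukocyte marker PTPRC (CD45) did not exceed 1.23 normalized counts, and CD3E, CD3D, CD2 and SPI1 had no reads in any of the 6 libraries.

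Genes of the extracellular matrix changed in composition. Of 29 tested collagens 18 rose and 4 fell, with a median of 1.59. Among the 18 with a DMSO mean of at least 10, 7 rose and 4 fell, with a median of 0.19. The network collagens of basement membranes went from silence to expression: COL4A1 had 0 in each DMSO library and 406, 419 and 482 in the tazemetostat libraries, COL4A5 had 0, 2.83 and 0.946 in the DMSO libraries and 994, 932 and 935 in the tazemetostat libraries, and COL4A2 and COL4A6 rose by 7.89 ± 0.18 and 8.09 ± 0.17. Among fibrillar collagens COL1A1 rose from 647 ± 65.1 to 1933 ± 61.1. COL3A1 had 28420, 25920 and 25220 in the DMSO libraries and 4286, 4392 and 4368 in the tazemetostat libraries and COL5A2 fell from 26950 ± 274 to 12310 ± 512. The cartilage collagen COL9A1 fell from 745 ± 52.1 to 114 ± 17.3. COL11A1, whose mean was the highest of the collagens that did not pass, changed by -0.68 ± 0.09. The summed counts of the list were lower with tazemetostat (177200 to 181900) than with DMSO (227600 to 234100), opposite in sign to its median.

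Receptors and linkers of the matrix followed. Of 22 integrins 10 rose and 2 fell, or 4 and 2 of the 16 with a DMSO mean of at least 10. ITGA2, the collagen-binding alpha 2 chain, had 0 in each DMSO library and 1371, 1295 and 1422 in the tazemetostat libraries, ITGB8 was at least 113-fold higher and ITGA1 rose from 7.29 ± 2.06 to 1398 ± 91. ITGA4 and ITGA9, which bind fibronectin and related ligands, fell (log2 changes -1.68 ± 0.26 and -1.45 ± 0.13). The abundant ITGAV and ITGB1 changed by -0.54 ± 0.10 and 0.83 ± 0.09 and did not pass. Of 23 laminins and matricellular proteins 11 rose and 2 fell. Of the 17 with a DMSO mean of at least 10, 5 rose and 2 fell, with a median of 0.29. Risen genes included LAMB3, a chain of the epithelial laminin 332 (1.21 ± 0.463 to 3787 ± 209). The falls were in THBS4 (101 ± 9.53 to 22.4 ± 3.16) and FBLN1 (4700 ± 218 to 2228 ± 64.7).

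Genes of the actin cytoskeleton and of YAP signalling rose. Of 22 tested YAP and TEAD targets 14 rose and 0 fell, with a median of 1.27. The classic targets CTGF and CYR61 rose by 1.43 ± 0.10 and 1.23 ± 0.07 from levels already high in DMSO (6026 and 5793). NT5E, the ectonucleotidase CD73, had 21.8, 13.2 and 15.1 in the DMSO libraries and 5132, 5479 and 4689 in the tazemetostat libraries, and IGFBP3 had 119.7, 35.8 and 36 in the DMSO libraries and 11890, 11320 and 11160 in the tazemetostat libraries. Of 12 smooth muscle contractile genes 10 rose and 0 fell, with a median of 1.75. Of the 8 with a DMSO mean of at least 10, 6 rose and 0 fell, with a median of 1.21. ACTA2, smooth muscle actin, had 3.49, 0 and 0.946 in the DMSO libraries and 3106, 3132 and 2893 in the tazemetostat libraries. CALD1, which binds actin and tropomyosin, had 90, 96.1 and 58.7 in the DMSO libraries and 41870, 40670 and 41500 in the tazemetostat libraries. SYNPO2 rose by 9.69 ± 0.26 and TAGLN by 2.15 ± 0.12, while TPM1, the most abundant member that did not pass, changed by 0.62 ± 0.07.

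Markers of other lineages were mixed. Of 10 tested epithelial genes 6 rose and 0 fell, or 4 and 0 of the 8 with a DMSO mean of at least 10. KRT5, a basal keratin, had 0 in each DMSO library and 712, 839 and 761 in the tazemetostat libraries, and KRT7 rose by 4.76 ± 0.24, but CDH1, the epithelial cadherin, changed by 0.45 ± 0.27 and did not pass. Of 25 skeletal muscle genes 10 were tested and 4 rose, or 2 of the 8 with a DMSO mean of at least 10. MYF5 and MYF6 had no reads, and the list median of 0.07 became -0.09 with equal totals. Of 15 tested neuronal genes 9 rose and 1 fell, or 5 and 1 of the 11 with a DMSO mean of at least 10. NCAM1 was at least 51-fold higher and MAP2 rose from 20.1 ± 10.1 to 1684 ± 106. GAD1, which makes GABA, fell from 8935 ± 1294 to 3041 ± 508. Of 8 cartilage and bone genes 5 rose, or 3 of the 6 with a DMSO mean of at least 10. RUNX2 rose from 2.74 ± 0.804 to 494 ± 12.3 and HAPLN1 from 11.7 ± 19.4 to 6879 ± 34.3. FABP4, the fatty acid-binding protein of adipocytes, had 0 in each DMSO library and 194, 227 and 234 in the tazemetostat libraries, and the adipocyte marker ADIPOQ did not exceed 1.97. Of 5 tested endothelial genes 2 rose, both from a DMSO mean under 10, and 1, CALCRL, fell. SOX17 and RAMP2 had no reads. Melanocyte markers gave 0 calls among 2 tested, and of the 3 tested cancer-testis genes 2 fell, PRAME and TEX15.

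**Figure D3:**
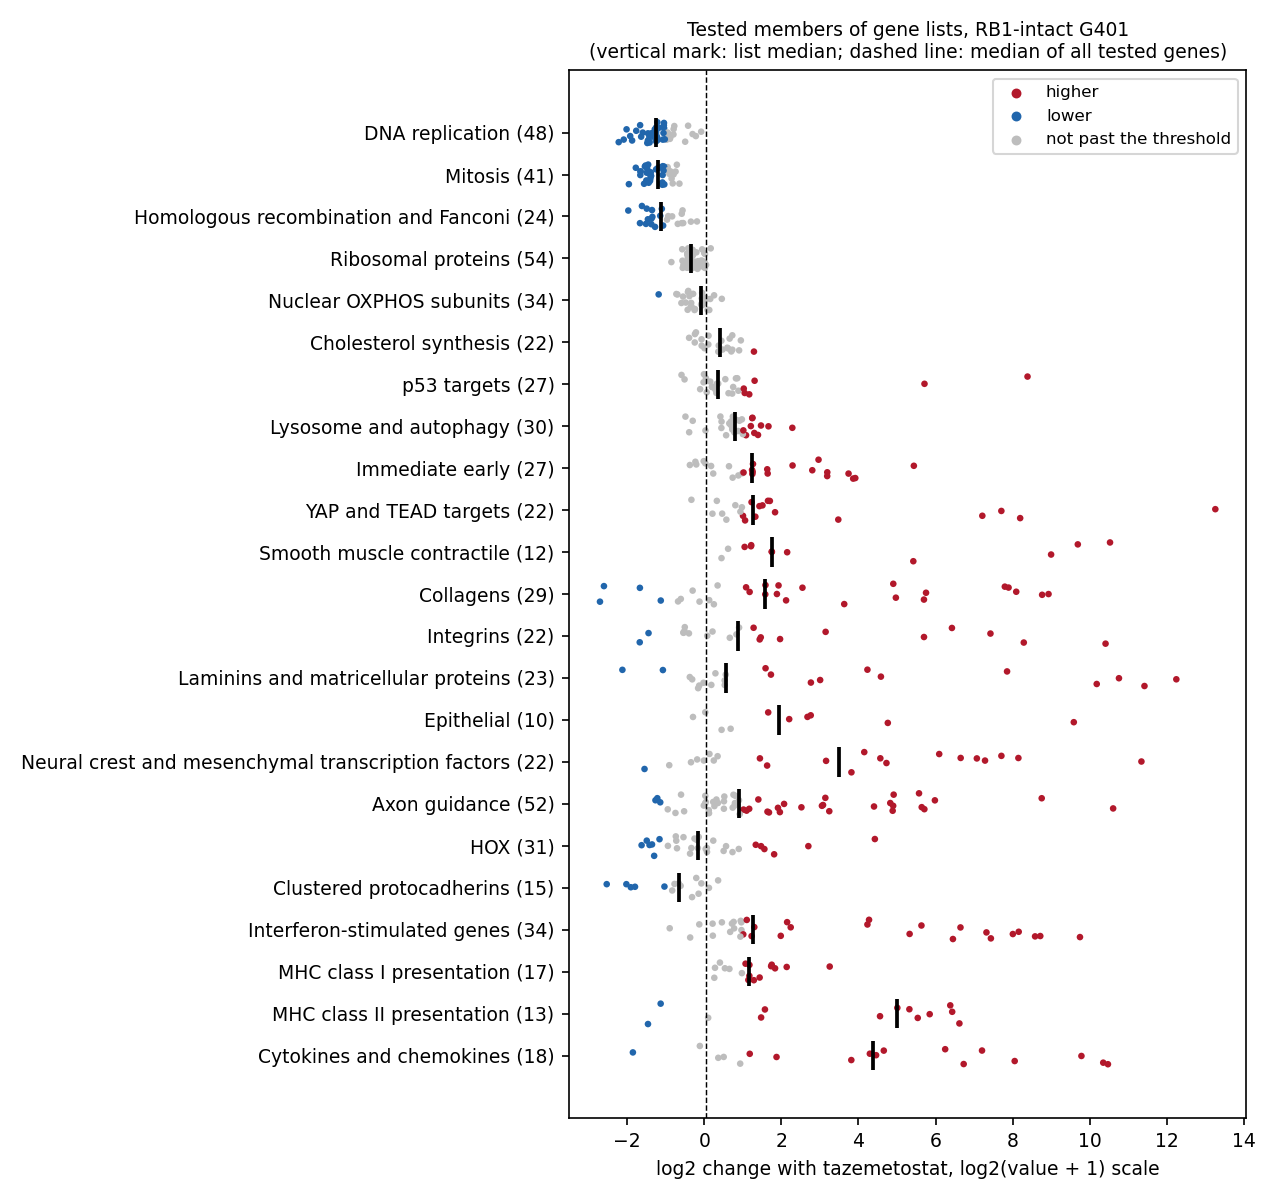
Log2 change with tazemetostat of each tested member of 23 gene lists (horizontal, log2(value + 1) scale; points spread vertically at random within a row; number tested in brackets), coloured by call. The replication and mitosis lists lie wholly to the left of 0, the ribosomal proteins hold no call, and the immune, matrix and mesenchymal lists trail far to the right.

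Developmental transcription factors moved in both directions. Of 22 tested neural crest and mesenchymal factors 14 rose and 1 fell, and their median was 3.49. The filter fixed much of this, as 10 of the 22 had a mean under 10 in DMSO. Of the other 12, 4 rose and 1 fell, with a median of 0.19. SNAI2, a repressor of epithelial genes, had 0 in each DMSO library and 276, 297 and 277 in the tazemetostat libraries, and ZEB2 had 0 in each DMSO library and 182, 252 and 197 in the tazemetostat libraries. FOXC1 fell from 2037 ± 39.9 to 695 ± 63.1. HOX genes split evenly, with 6 of 31 higher and 6 lower, 19.4% each against 14.8% and 6.52% of all tested genes. Of the 30 with a DMSO mean of at least 10, 5 rose and 6 fell, 16.7% and 20% against 8.43% and 7.07%. The risen ones lay mainly in the HOXB and HOXD clusters, HOXD13 by 4.42 ± 0.43, HOXD8 by 2.7 ± 0.18 and HOXB8 by 1.81 ± 0.10, and the fallen ones all in HOXA and HOXC, such as HOXC13 (-1.5 ± 0.08), HOXC11 (-1.36 ± 0.09) and HOXA5 (-1.3 ± 0.14). HOXA13 was the 1 risen gene outside HOXB and HOXD. Of 11 kidney development genes 5 rose and 2 fell, and all 5 that rose had a DMSO mean under 10. RET, the receptor of the ureteric bud, rose from 8.33 ± 3.41 to 154 ± 2.38, SALL2 and MEOX1 fell (log2 changes -1.18 ± 0.07 and -1.05 ± 0.06), and PAX2 was 1092 ± 132 to 1024 ± 133 with overlapping libraries.

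Among ligands and receptors, 25 of 52 axon guidance genes rose and 3 fell, or 18 and 3 of the 45 with a DMSO mean of at least 10 (median 0.78). NRP2, a coreceptor of semaphorins, had 0, 0.943 and 0.946 in the DMSO libraries and 2484, 2462 and 2353 in the tazemetostat libraries, and the secreted guidance cue SLIT3 had 0, 0 and 3.79 in the DMSO libraries and 728, 723 and 730.3 in the tazemetostat libraries. SEMA3D fell from 2963 ± 72.9 to 1277 ± 164. Of 32 WNT pathway genes 11 rose and 0 fell. Of the 27 with a DMSO mean of at least 10, 6 rose and 0 fell, with a median of 0.12. The secreted antagonist DKK1 led, with 0.874, 5.66 and 4.73 in the DMSO libraries and 4071, 4237 and 3613 in the tazemetostat libraries. Of 39 genes of the TGF-beta and BMP pathway 13 rose and 1 fell, led by the activin chain INHBA (0 in each DMSO library and 601, 642 and 464 in the tazemetostat libraries) and the BMP effector SMAD1 (1.48 ± 1.81 to 517 ± 43.1). TGFB3 fell from 255 ± 19.6 to 118 ± 13.8. Of the 33 TGF-beta and BMP genes with a DMSO mean of at least 10, 7 rose and 1 fell, with a median of 0.48.

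Of 23 Notch genes 10 rose and 2 fell, or 5 and 2 of the 17 with a DMSO mean of at least 10. The ligand JAG1 had 0, 0.943 and 1.89 in the DMSO libraries and 1158, 1166 and 1238 in the tazemetostat libraries and the target HES1 rose from 7.01 ± 2.81 to 555 ± 48.1, whereas RBPJ, the DNA-binding partner of Notch, fell from 31270 ± 418 to 12120 ± 498. MFNG fell by 1.04, a call lost at a pseudocount of 5 (-0.97) and without DMSO replicate 2 (-0.94), tazemetostat replicate 1 (-0.98) or replicate 2 (-0.90). In the Hedgehog pathway 4 of 11 rose, all from a DMSO mean under 10, and GLI1, its transcriptional effector and target, fell from 763 ± 69.1 to 343 ± 17.7. Of 26 growth factor receptor kinases 10 rose and 2 fell. Of the 21 with a DMSO mean of at least 10, 6 rose and 2 fell, with a median of 0.1. MET, the receptor of hepatocyte growth factor, had 1.75, 0 and 0.946 in the DMSO libraries and 1001, 1026 and 913 in the tazemetostat libraries, the collagen receptor DDR1 rose from 4826 ± 60.5 to 18500 ± 189 and ERBB3 fell from 1919 ± 50.1 to 713 ± 47.5. Of 26 potassium channel genes 10 rose and 1, KCNT2, fell. Of the 20 with a DMSO mean of at least 10, 4 rose and 1 fell, with a median of 0.45. KCNMA1 had 0, 0 and 0.946 in the DMSO libraries and 800.2, 831 and 801 in the tazemetostat libraries.

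Imprinted genes and clustered protocadherins also moved. IGF2, a paternally expressed growth factor, had 18.3, 33 and 19.9 in the DMSO libraries and 4285, 4168 and 4469 in the tazemetostat libraries, a log2 change of 7.49 ± 0.18. Of 13 tested imprinted genes 4 rose and 1, the retrotransposon-derived PEG10, fell from 15700 ± 756 to 5354 ± 269.7. Of 15 tested protocadherins of the clusters 0 rose and 5 fell, among them PCDHGB7 (-1.04 ± 0.15, short of the limit without tazemetostat replicate 3 at -0.94) and PCDHGA4 (-2.53 ± 0.42). The isoforms of a cluster share exons, so their reads may be divided.

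Housekeeping pathways changed little by comparison. None of 54 ribosomal protein genes passed the threshold, although 49 had log2 changes below 0 and the median was -0.34; RPL3 changed by -0.56 ± 0.09. Of 34 nuclear genes of oxidative phosphorylation UQCRC2 alone passed, falling from 23960 ± 998 to 10540 ± 716, while the 13 mitochondrial transcripts had a median of 0.50 with 0 calls. In glycolysis the glucose transporters SLC2A3 (103 ± 18.6 to 1772 ± 114) and SLC2A1 (1.1 ± 0.10 log2, lost with equal totals at 0.95) rose and 19 of 21 genes did not pass. Of 22 cholesterol synthesis genes SC5D rose (1.29 ± 0.09), and in the fatty acid list ACSL4 (50.2 ± 3.64 to 1164 ± 89.9) and ACSL1 (1.2 ± 0.07) rose among 14, with a list median of 0.11 that became -0.04 with equal totals. GMPS, of guanine synthesis, fell from 6203 ± 339 to 2193 ± 149 and PHGDH, which starts serine synthesis, from 4007 ± 292 to 1929 ± 89.8. The nucleolar methyltransferase FBL was the 1 gene of 31 in the ribosome biogenesis list to fall (-1.08 ± 0.07). MYC was 3290 ± 112 to 4504 ± 17.7 and did not pass.

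Among lysosomal and stress lists the share of rises lay between 14.3% and 59.3%, against 14.8% of all tested genes. Over members with a DMSO mean of at least 10 it lay between 14.3% and 54.2%, against 8.43%. Of 30 lysosome and autophagy genes 10 rose and 0 fell, and 27 were above 0, with a median of 0.80. The autophagosome protein GABARAPL1 rose from 3875 ± 108 to 18880 ± 1170, the protease CTSL from 1416 ± 77.9 to 4504 ± 527 and the lysosomal channel MCOLN1 from 544 ± 38.9 to 1507 ± 70.5. Of 27 immediate early genes 16 rose and 0 fell. JUN rose by 3.19 ± 0.10 and EGR3 had 1.75, 2.83 and 3.79 in the DMSO libraries and 149.8, 186 and 144 in the tazemetostat libraries. In the unfolded protein response list 3 of 21 rose, 14.3% against 14.8% of all tested genes. All 21 had a DMSO mean of at least 10, where 8.43% of tested genes rose. ATF3, which is also an immediate early gene, rose from 101 ± 3.23 to 1489 ± 89. DNAJB9 rose by 1.46 ± 0.11 and CHAC1 by 1.24 ± 0.19, while the chaperone HSPA5 changed by 0.36 ± 0.07. Of 18 hypoxia genes 5 rose and 1 fell. Of the 16 with a DMSO mean of at least 10, 3 rose (18.8%) and 1 fell, with a median of 0.45. NDRG1 had 0 in each DMSO library and 1215, 1255 and 1172 in the tazemetostat libraries and EGLN3 had 0, 0.943 and 0 in the DMSO libraries and 249, 240.4 and 269.7 in the tazemetostat libraries, but PDK1 fell from 675 ± 63.6 to 250.1 ± 23.2.

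Of 58 listed histone genes with cluster names 29 were tested, and 9 of these rose, 1 fell and 19 did not pass. Of the 29 that missed the filter, all with low values, 22 had a lower mean with tazemetostat and 4 a higher one, so the tested genes do not stand for the family. HIST1H2BC had 142, 158 and 145 in the DMSO libraries and 624, 597 and 594 in the tazemetostat libraries, and HIST2H2BE rose from 391 ± 11.9 to 1225 ± 50.6. Most replication-dependent histone mRNAs end in a stem-loop without a poly(A) tail, so poly(A) selection measures only their polyadenylated forms.

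Some risen genes lay next to each other in the order of the tested genes. In the order of RefSeq gene starts, with 12942 tested protein-coding genes on the chromosomes, there were 25 runs of 5 or more adjacent risen genes, holding 154 of the 2066 risen, and 1 run of fallen genes. The longest, on chromosome 10, held 10 genes: ANKRD22, STAMBPL1, ACTA2, FAS, LIPA, IFIT2, IFIT3, IFIT1, IFIT5 and SLC16A12. Runs of 8 were HLA-DRA to TAP1 on chromosome 6 and CCR1 to PTH1R on chromosome 3, and runs of 6 included KRT80, KRT7, KRT75, KRT5, KRT8 and KRT18 on chromosome 12 and RASSF6, IL8, CXCL6, CXCL1, PPBP and CXCL5 on chromosome 4. A pair of neighbouring type IV collagen genes, COL4A1 and COL4A2, lay in another on chromosome 13. The fallen run, DYNC1I2 to DLX2 on chromosome 2, held 6 genes. Related genes lie together in the genome and may share reads, and genes near 0 in DMSO that did not rise are not among the tested ones, so these counts are a description.

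In the RB1-deleted clones some of these changes differed in size. The same fit called 1822 genes higher (11.3%) and 593 lower (3.69%) with tazemetostat in E1, and 2137 (13.3%) and 599 (3.73%) in F2. All counts here are over the genes kept by their mean in the WT libraries. A gene low in WT under both conditions was therefore not tested, even if it rose in a clone. Genes near the floor in WT DMSO were tested only if high with tazemetostat in WT. The filter thus favours rises in WT, and these shares do not rank the lines by size of response. The response itself differed from WT by a log2 of at least 1 in 1647 genes for E1 (10.2%) and in 1213 for F2 (7.54%). These 2 comparisons share the WT libraries and are given side by side.

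The cell cycle lists differed from WT in both clones. None of the 48 replication genes passed the threshold with tazemetostat in either clone, and their median was -0.16 in E1 and -0.25 in F2 against -1.25 in WT. The response was less negative than in WT in 26 of 48 genes for E1 and 23 for F2, where 4.55% and 4.5% of all tested genes had a higher response. Among the 41 mitotic genes it was 34 and 32, among the 24 recombination and Fanconi genes 14 and 13, and in each of these lists 0 went the other way. The log2 change of EZH2 was -0.08 in E1 and -0.28 in F2, and the response differed from WT by 1.42 ± 0.10 and 1.22 ± 0.10 (adjusted p from limma 5.2e-09 and 4.7e-08). For CCNA2 the differences were 1.70 ± 0.12 and 1.57 ± 0.12, and for MKI67 1.60 ± 0.17 and 1.62 ± 0.17.

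Of the 2386 genes that rose in WT, 1649 (69.1%) also rose in E1 and 1886 (79%) in F2, each against the clone's own DMSO libraries. In the order WT, E1, F2, the log2 rises of ANKRD1 were 13.26, 13.75 and 14.43, those of PCGF5 6.35, 6.10 and 6.67, and those of CDK6 9.14, 9.89 and 9.71, with no difference in response past the threshold. Others differed in size. The rise of CCL2 was 10.47 in WT and 5.03 in E1, and that of KRT8 2.76 and 1.10, with response differences of -5.45 ± 0.25 and -1.66 ± 0.18. A lower response than in WT was found in 5.7% of all tested genes for E1 and 3.05% for F2. The class II response was smaller in E1 in 8 of 13 genes and in F2 in 1, and the class I response in 5 of 17 and in 0. Genes were kept by their WT values, and 8 of the 13 class II genes had a WT DMSO mean under 10. Such genes, CCL2 among them, were tested because they were high with tazemetostat in WT, which favours a smaller response in a clone. Histone genes had a lower response in E1 in 15 of 29 and in F2 in 3. NT5E and IGFBP3 rose by a larger fold in both clones than in WT, by differences of 2.53 ± 0.38 and 2.59 ± 0.38 for NT5E and 2.97 ± 0.45 and 2.85 ± 0.45 for IGFBP3. Their DMSO means were lower in the clones, at most 2.47 against 16.7 and 63.8 in WT, and so were their tazemetostat means.

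**Figure D4:**
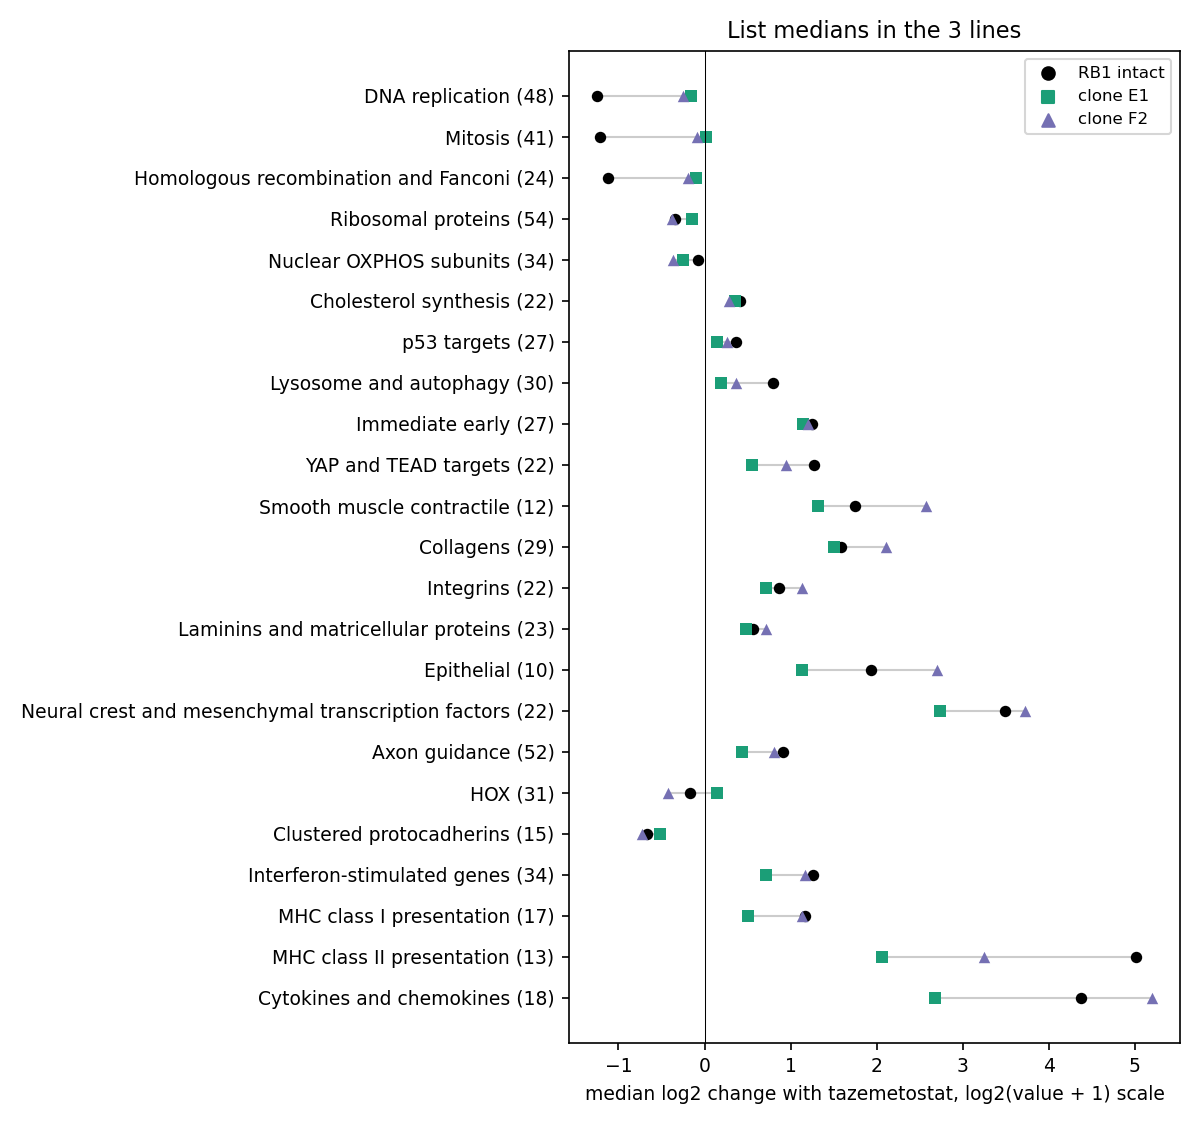
Median log2 change with tazemetostat (horizontal, log2(value + 1) scale) of the tested members of 23 lists in the WT line and in clones E1 and F2, with the number tested in brackets. For replication, mitosis and recombination the WT median lies below -1 and both clones lie near 0. For most of the other lists the 3 medians have the same sign. No error is drawn, since list members are not replicates.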

How the data were processed

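RNA-seq of 18 G401 libraries was analysed, 6 of them in the comparison. The values of the table the authors deposited are a signal: reads per gene, divided by the size factor of the library. The submitters' processing notes name Trim Galore 0.4.4, STAR 2.6.0a, HTSeq, DESeq2 and hg19, with no roles; the annotation and strand setting are not given in the sources used here. Multiplying by a library's step gave whole reads for 100% of values (tolerance 1e-06), and 0 columns lacked a sample. Depth was 28954561 to 39314860 reads in the 6 WT libraries. Floors (3 reads per library) cover counting error only, and PCR copies were not told apart.

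Tests used limma 3.58.1 in R 4.3.3 (lmFit, eBayes with a trend) on log2(value + 1) in 1 fit of 6 group means over 18 libraries (12 residual degrees of freedom), for the 16077 genes with a mean of at least 10 over the WT libraries. This log2 scale understates the change of low genes. An exact permutation test of 3 against 3 libraries could not go below p = 0.1. On simulated counts for WT over 16077 genes, 90% of 100 genes changed by a log2 of 1.5 and 100% of 100 changed by 3 were recovered, with 4 false calls. The simulation raised DMSO means under 10 to 10, so these rates do not cover the 1236 tested genes below that level. Replicate numbers are shared between groups, and deviations of same-numbered libraries correlated at 0.0968, 0.0669 and 0.329, the last for replicate 3. The main fit has no replicate block, and a fit with the block gave 2388 rises and 1052 falls in WT. Alternatives were other pseudocounts, filters and scalings, a replicate block, leaving out each replicate, and edgeR 4.0.16 and DESeq2 1.42.0 on the recovered reads.

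The members and lists were chosen with earlier results of these data known. Named genes were 10 set by hand, the 10 largest rises and falls by log2 change at a mean of at least 50 without overlap, the 5 largest by counts (1 of the rises is not reported here), and in each list up to 3 rises, 3 falls and the 2 most abundant genes that did not pass. Others were added after their values were seen. Promoters came from RefSeq (GRCh38.p14), whose coordinates were not mixed with hg19. By symbol or older symbol 14064 tested genes matched RefSeq. Figures used matplotlib 3.10.9.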

Additional observations from a re-analysis of the deposited data

Results flagged for a closer look

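The response to tazemetostat differed between lines by the test of the difference itself (the response in a clone minus that in WT, limma, adjusted p under 0.05 and a log2 difference of at least 1) in 1647 tested genes for E1 and 1213 for F2. The values below are such differences, positive where a fall was smaller or a rise larger in the clone. Among cell cycle genes and EZH2 they were 1.42 for EZH2, 1.70 for CCNA2 and 1.60 for MKI67 in E1, and 1.22, 1.57 and 1.62 in F2. The count of genes with a different response was 26 of 48 in DNA replication for E1, 34 and 32 of 41 in mitosis for E1 and F2, and 14 and 13 of 24 in homologous recombination and the Fanconi pathway.

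Among the largest rises, the E1 response was smaller than that of WT by -1.75 for TNFRSF19, -1.95 for FN1, -3.25 for ETS1, -1.66 for KRT8 and -1.52 for KRT18, and the F2 response by -1.05 for CDC42EP3. These genes, and the falls below, were picked for large changes in WT, which favours a smaller response in a clone. The call for TNFRSF19 was lost with edgeR (-1.74) and DESeq2 (-1.78), and that for CDC42EP3 with 6 of the other settings and without any of 10 libraries.

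Among the largest falls, the difference in E1 was 1.68 for CALCRL, 1.44 for PRAME, 4.19 for ADCYAP1, 2.13 for KCNT2, 1.17 for ST18, 1.03 for HNRNPA1 and -1.03 for MMRN1. In F2 it was 1.67 for KCNT2, -1.20 for ST18 and 1.57 for COL3A1. ADCYAP1 had no reads in E1 under either condition, so its difference only restates the fall in WT and shows no other response, and its call was lost with edgeR and DESeq2. The PRAME call was lost with DESeq2 (1.27), without the filter (adjusted p = 0.054 from limma), without WT tazemetostat replicate 3 (0.87), without WT DMSO replicate 2 or without E1 tazemetostat replicate 1. That for MMRN1 was lost with equal totals (-0.94) and without any of 4 libraries (-0.98 to -0.94), that for HNRNPA1 without any of 3 libraries (0.96 to 0.98), and ST18's without the filter, in F2 also with other pseudocounts and equal totals, and without several single libraries in both clones, so that its values of opposite sign rest on few libraries. For E1, a different response was also found in 8 of 13 class II genes, 11 of 18 cytokines and chemokines, 15 of 29 histone genes and 3 of 5 endothelial genes. Among the tested genes of these lists, 8 class II, 9 cytokine, 2 histone and 2 endothelial genes had a WT DMSO mean under 10. They entered the test through their WT tazemetostat values, which favours a smaller response in a clone. Levels in DMSO also differed between the lines, and their part in these differences was not tested.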

How the results depend on the processing

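The counts of rises and falls in WT were 2365 and 1111 with edgeR and 2385 and 1081 with DESeq2, and 3386 genes were called by both limma and edgeR. With the replicate number as a block they were 2388 and 1052, and the block changed no list count. They moved by more than 1.5 times without a filter (4243 rises), at a mean of at least 50 (1582 rises) and without the limit on fold (5669 rises and 4699 falls). The response differences moved at a mean of at least 50 (1093 for E1, 802 for F2) and without the fold limit (5762 and 4359). Leaving out 1 library at a time gave 2370 to 2410 rises, 1015 to 1112 falls, 1536 to 1919 response differences for E1 and 1097 to 1280 for F2. Of 195 named genes past the threshold, AHNAK, BLCAP, CCND1, CDKN2D, MFNG, PCDHGB7 and SLC2A1 lost the call in some setting, and none changed sign. Of the genes that did not pass, CDKN1C (-0.01) ranged from -0.225 to 0.252 with 1 library left out and was above 0 without DMSO replicate 1 (0.021), DMSO replicate 2 (0.142) or tazemetostat replicate 1. HLA-DMB (0.10) was -0.051 with equal totals and ranged from -0.021 without DMSO replicate 1 to 0.271 without DMSO replicate 3. Depth limits genes near the floor: a gene without reads may still be expressed below 3 reads per library.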

Other observations

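By RefSeq gene type, 16.0% of 12959 tested protein-coding genes rose and 5.49% fell. Of 463 long noncoding RNAs 11.2% rose and 9.07% fell, and of 1939 genes known only by clone-based names 10.8% rose and 12% fell. These types differ in level as well, which was not adjusted for. The 4 genes at the floor in every tazemetostat library were C2orf48, DLGAP1-AS3, GPRIN3 and RP11-301N24.3.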
